A study of Mus musculus with 8 samples.

Results

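Egr1, Egr2, Egr3, Egr4, Nr4a1, Nr4a2, Nr4a3, Klf2, Ier2 and Ier3 are early response genes, which cells transcribe soon after a stimulus. They are 10 of the 20660 named genes on 8 Agilent one-colour arrays of mouse LSK cells. The genes were chosen by name, with earlier results of these data known. Each was read from the probe whose transcript maps to it, and from the brighter of its probes where it had several. LSK cells are the lineage-negative, Sca-1-positive, c-Kit-positive marrow fraction that holds blood stem cells and early progenitors. Each of 8 groups had 1 array, so no group has a replicate. A level is log2 of the processed signal less that array's own 75th percentile, so a probe at the percentile has the level 0.

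Donor CD45.2 stem cells on a C57BL/6 background carried Cre-ERT with wild-type or floxed Ezh2, were transduced with a retrovirus for RUNX1S291fs or an empty control virus, and were grafted into lethally irradiated recipients together with CD45.1 wild-type marrow. Deletion of Ezh2 followed the graft. The double mutant (RUNX1S291fs/Ezh2Δ/Δ) has an array at month 4, an array from a moribund mouse with myelodysplastic syndrome (MDS) and an array from a moribund mouse with MDS/myeloid leukemia (MDS/ML). RUNX1S291fs (virus, wild-type Ezh2), Ezh2Δ/Δ (Ezh2 deleted, empty virus) and WT (wild-type Ezh2, empty virus) have a month 4 array each. CD45.1 cells were sorted at month 4 from the marrow of RUNX1S291fs mice and of double-mutant mice. They carry neither lesion and, unlike the 6 CD45.2 arrays, had neither virus nor Cre. Month 4 CD45.2 arrays held cells pooled from 2 to 4 mice, and the moribund arrays came from single mice. The sources used here give neither ages nor the number of mice behind the CD45.1 arrays.

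EGR proteins are zinc finger transcription factors that bind a GC-rich site, and the corepressors Nab1 and Nab2 hold them in check. The NR4A proteins are orphan nuclear receptors that act without a known natural hormone, alone or with the retinoid X receptors. Kinases of the ERK pathway switch on many such genes through serum response factor and its partners, and cAMP signals do so through CREB. In the mouse, Egr1 helps keep blood stem cells quiescent and in the marrow, and mice without Nr4a1 and Nr4a3 develop acute myeloid leukemia.

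RefSeq promoter windows of GRCm38.p6, each 250 bases before to 50 bases after a start site, were at hand for 7 of the 10 genes (11 windows, 5 of them for Egr2). Those of Egr2, Nr4a1, Nr4a2 and Klf2 are shown as windows of each family that hold different elements. Capitals mark the serum response element known as the CArG box in Egr2, the MEF2 site in Klf2, and the 5-base core TGACG of the cAMP response element, on either strand, in all 4. On the other strand that core reads CGTCA.
Egr2: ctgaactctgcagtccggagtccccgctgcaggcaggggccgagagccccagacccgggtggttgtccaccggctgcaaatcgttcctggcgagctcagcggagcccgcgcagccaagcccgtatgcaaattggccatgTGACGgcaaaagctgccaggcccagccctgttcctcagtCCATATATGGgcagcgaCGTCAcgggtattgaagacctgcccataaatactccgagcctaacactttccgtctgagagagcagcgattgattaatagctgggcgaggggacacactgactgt
Nr4a1: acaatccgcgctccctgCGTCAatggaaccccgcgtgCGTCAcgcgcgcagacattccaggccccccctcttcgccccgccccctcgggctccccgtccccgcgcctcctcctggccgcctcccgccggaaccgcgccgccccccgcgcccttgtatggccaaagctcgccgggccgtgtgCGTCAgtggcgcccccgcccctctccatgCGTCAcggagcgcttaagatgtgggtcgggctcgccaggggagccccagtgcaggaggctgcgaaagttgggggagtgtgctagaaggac
Nr4a2: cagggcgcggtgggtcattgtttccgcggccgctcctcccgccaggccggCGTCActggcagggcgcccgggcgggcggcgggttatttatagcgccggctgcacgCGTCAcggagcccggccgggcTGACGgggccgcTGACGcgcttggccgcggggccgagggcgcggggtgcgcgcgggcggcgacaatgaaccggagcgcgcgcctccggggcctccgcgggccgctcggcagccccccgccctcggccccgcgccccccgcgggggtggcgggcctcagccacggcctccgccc
Klf2: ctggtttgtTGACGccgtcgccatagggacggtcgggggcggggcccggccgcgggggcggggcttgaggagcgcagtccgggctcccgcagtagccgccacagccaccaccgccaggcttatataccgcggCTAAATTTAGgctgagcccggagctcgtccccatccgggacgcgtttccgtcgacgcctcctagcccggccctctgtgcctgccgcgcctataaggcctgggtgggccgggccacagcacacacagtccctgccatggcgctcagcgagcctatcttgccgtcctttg
The windows lie at chr10:67537619-67537918 on the plus strand (Egr2), chr15:101266596-101266895 on the plus strand (Nr4a1), chr2:57123954-57124253 on the minus strand (Nr4a2) and chr8:72318812-72319111 on the plus strand (Klf2). The Egr2 window printed is 1 of 5 overlapping or neighbouring windows, and its CArG box CCATATATGG starts at position -72 from the start site. A CArG box was found in 1 of the 7 genes (Egr2) and in 1.63% of 32851 mouse windows. The TGACG core, which the full cAMP response element TGACGTCA contains, was found in 6 of 7 genes (all but Ier3) and in 20.8% of windows. Nr4a1, Nr4a2 and Nr4a3 had 4 matches each. A gene with several windows has more chances of a match than a single window. By window, the core was found in 8 of the members' 11 and the CArG box in 4 of 11, all of Egr2. The full TGACGTCA was found in 0 of 7 genes and in 1.79% of windows. The EGR site GCGTGGGCG and the NR4A site AAAGGTCA were also found in 0 of 7 genes, against 0.612% and 1.51% of windows, and the AP-1 site TGANTCA in 0 of 7 against 7.81%. The MEF2 site of Klf2, CTAAATTTAG at position -118, was of a kind found in 0.557% of windows, and the TATAAA box, found in Nr4a2 alone, in 13.6%. Both strands were searched, and a match is a run of letters, not a shown binding site. The TATAAA match in Nr4a2 was on the other strand, as TTTATA at position -164. Near variants of that string were not searched, so the other genes may hold them.

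Before the members, the arrays themselves. The 75th percentile of signal was 185.7 for CD45.1 cells from RUNX1S291fs marrow, the dimmest array, and 474.1 for WT, the brightest, and 43.9% to 55.3% of probes were well above background, as the scanner software marks them. WT, the month 4 double mutant and MDS shared slide 1, Ezh2Δ/Δ, RUNX1S291fs and both CD45.1 arrays shared slide 2, and MDS/ML was alone on slide 3. Xist was not well above background on Ezh2Δ/Δ and MDS/ML, where the Y-linked gene Ddx3y had levels of 1.74 and 1.57, while Xist lay between 1.10 and 2.76 on the other 6 arrays. Sex and group thus cannot be told apart for those arrays. The probe of Ezh2 read 3.42 on the month 4 double mutant, 3.29 on MDS, 3.10 on MDS/ML, 3.51 on Ezh2Δ/Δ and 3.46 on WT. The sources used here do not say whether it lies in the deleted part, so it checks nothing. The LSK markers Kit (4.07 to 5.11) and Ly6a (0.53 to 4.14) were well above background on all 8 arrays. Ly6a, which encodes Sca-1, was lowest on the moribund arrays, at 0.53 on MDS and 1.18 on MDS/ML, against 3.17 to 4.14 elsewhere. The summed linear signal of 10 neutrophil markers ranged from 7.79 times the array's 75th percentile on MDS/ML to 2016 times on the month 4 double mutant, and that of 10 megakaryocyte markers from 8.51 on CD45.1 cells from RUNX1S291fs marrow to 752.5 on MDS. In bulk cells, fewer cells of a type and less RNA per cell cannot be told apart.

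Egr1 was well above background on all 8 arrays. Its level was 4.68 on the month 4 double mutant, 8.10 on MDS, 5.82 on MDS/ML, 7.28 on RUNX1S291fs, 5.35 on Ezh2Δ/Δ, 5.52 on CD45.1 cells from RUNX1S291fs marrow, 6.83 on CD45.1 cells from double-mutant marrow and 5.69 on WT. MDS was highest and the month 4 double mutant lowest, 10.7-fold apart. With 1 array per group there is no spread within a group, and the levels are set beside the SD of the 3 wild-type arrays (WT and both CD45.1 arrays), which was 0.71 for Egr1. It takes in a difference of slide, since WT lay on slide 1 and both CD45.1 arrays on slide 2. In the order of the 8 levels, 2 of 7 gaps exceeded that SD: MDS over RUNX1S291fs, and CD45.1 cells from double-mutant marrow over MDS/ML. The levels of MDS/ML, WT, CD45.1 cells from RUNX1S291fs marrow, Ezh2Δ/Δ and the month 4 double mutant were each within that SD of their neighbour.

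Egr2, known as Krox20 for its part in hindbrain patterning and nerve myelination, had the widest range among the 7 genes that were well above background on all arrays. Its level was -1.98 on the month 4 double mutant, 2.84 on MDS, -1.85 on MDS/ML, 1.40 on RUNX1S291fs, -1.44 on Ezh2Δ/Δ, -0.29 on CD45.1 cells from RUNX1S291fs marrow, 0.67 on CD45.1 cells from double-mutant marrow and -2.36 on WT. The highest array, MDS, stood 36.8-fold above the lowest, WT. The wild-type arrays themselves spread over 3.03 (SD 1.55), and 0 of 7 gaps between neighbours exceeded that SD.

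Egr3, needed for muscle spindles in the mouse, was well above background on MDS (-3.35) and RUNX1S291fs (-3.71) only. Its signal was not well above background on the month 4 double mutant (-6.73), MDS/ML (-6.31), Ezh2Δ/Δ (-6.28), CD45.1 cells from RUNX1S291fs marrow (-5.46), CD45.1 cells from double-mutant marrow (-5.15) and WT (-7.13). The 2 arrays that measured it are also the highest 2 for Egr1 and Egr2.

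Egr4 had a level of -4.85 on the month 4 double mutant and -5.52 on MDS/ML, both not well above background. Elsewhere it was 0.66 on MDS, 1.16 on RUNX1S291fs, -1.34 on Ezh2Δ/Δ, -1.50 on CD45.1 cells from RUNX1S291fs marrow, 0.38 on CD45.1 cells from double-mutant marrow and -2.52 on WT. RUNX1S291fs was highest here, with MDS and CD45.1 cells from double-mutant marrow next, and the 3 lay closer together than the wild-type SD of 1.47. The gap between those CD45.1 cells and Ezh2Δ/Δ, and that between WT and the month 4 double mutant, exceeded it.

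Nr4a1, or Nur77, a receptor gene that antigen and stress signals switch on in blood cells, was bright throughout. Its level was 6.64 on the month 4 double mutant, 8.55 on MDS, 6.12 on MDS/ML, 9.70 on RUNX1S291fs, 9.22 on Ezh2Δ/Δ, 6.89 on CD45.1 cells from RUNX1S291fs marrow, 8.78 on CD45.1 cells from double-mutant marrow and 6.74 on WT. The arrays formed an upper and a lower set of 4, with the gap of 1.67 between MDS and CD45.1 cells from RUNX1S291fs marrow the only one above the wild-type SD of 1.14. Unlike the EGR genes, Nr4a1 was high on Ezh2Δ/Δ.

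Nr4a2, or Nurr1, known for its need in dopamine neurons, had a level of 1.88 on the month 4 double mutant, 6.19 on MDS, 3.90 on MDS/ML, 4.47 on RUNX1S291fs, 3.78 on Ezh2Δ/Δ, 2.11 on CD45.1 cells from RUNX1S291fs marrow, 3.92 on CD45.1 cells from double-mutant marrow and 2.72 on WT. MDS stood 1.72 above RUNX1S291fs, more than the wild-type SD of 0.92. RUNX1S291fs, CD45.1 cells from double-mutant marrow, MDS/ML and Ezh2Δ/Δ were each within that SD of their neighbour. Nr4a2 is the only member with 2 probes, and over the 8 arrays they had r = 0.977, so both gave the same picture. MDS exceeded the month 4 double mutant by 4.31 on the brighter and 4.43 on the other probe, and MDS/ML differed from MDS by -2.30 and -3.25.

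Nr4a3, or Nor-1, the third receptor of the family, was at -6.30 on MDS/ML and -3.64 on CD45.1 cells from RUNX1S291fs marrow, both not well above background. It was at -3.14 on the month 4 double mutant, -1.52 on MDS, -1.16 on RUNX1S291fs, -1.08 on Ezh2Δ/Δ, -2.49 on CD45.1 cells from double-mutant marrow and -4.87 on WT. The WT level was near that array's floor, its lowest level well above background (-5.245), so folds of Nr4a3 against WT are imprecise. Ezh2Δ/Δ, RUNX1S291fs and MDS lay together at the top, within the wild-type SD of 1.19, which includes the dim CD45.1 value. As with Nr4a1, the Ezh2Δ/Δ array was among the highest 2.

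Klf2, a zinc finger factor that restrains lymphocyte activation and switches on the exit receptor gene S1pr1 in T cells, differed in its order. Its level was 5.59 on the month 4 double mutant, 8.14 on MDS, 6.12 on MDS/ML, 8.49 on RUNX1S291fs, 6.16 on Ezh2Δ/Δ, 7.66 on CD45.1 cells from RUNX1S291fs marrow, 7.69 on CD45.1 cells from double-mutant marrow and 6.24 on WT. Both CD45.1 arrays joined the upper set, and the gap of 1.42 between them and WT was the only one above the wild-type SD of 0.83. Those same arrays give the SD. With the CD45.1 levels nearly equal and WT apart, the gap must exceed it, so the excess shows nothing further.

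Ier2 encodes a nuclear protein of the early response, and Ier3 a protein that bears on cell survival under stress. Ier2 had a level of 1.96 on the month 4 double mutant, 5.15 on MDS, 3.71 on MDS/ML, 4.62 on RUNX1S291fs, 3.79 on Ezh2Δ/Δ, 2.87 on CD45.1 cells from RUNX1S291fs marrow, 4.09 on CD45.1 cells from double-mutant marrow and 2.85 on WT. Ier3 had a level of 2.93 on the month 4 double mutant, 5.39 on MDS, 3.42 on MDS/ML, 5.10 on RUNX1S291fs, 4.21 on Ezh2Δ/Δ, 3.87 on CD45.1 cells from RUNX1S291fs marrow, 4.66 on CD45.1 cells from double-mutant marrow and 3.84 on WT. The first 4 arrays came in the same order for both: MDS, RUNX1S291fs, CD45.1 cells from double-mutant marrow and Ezh2Δ/Δ, and the month 4 double mutant was lowest.

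**Figure D1:**
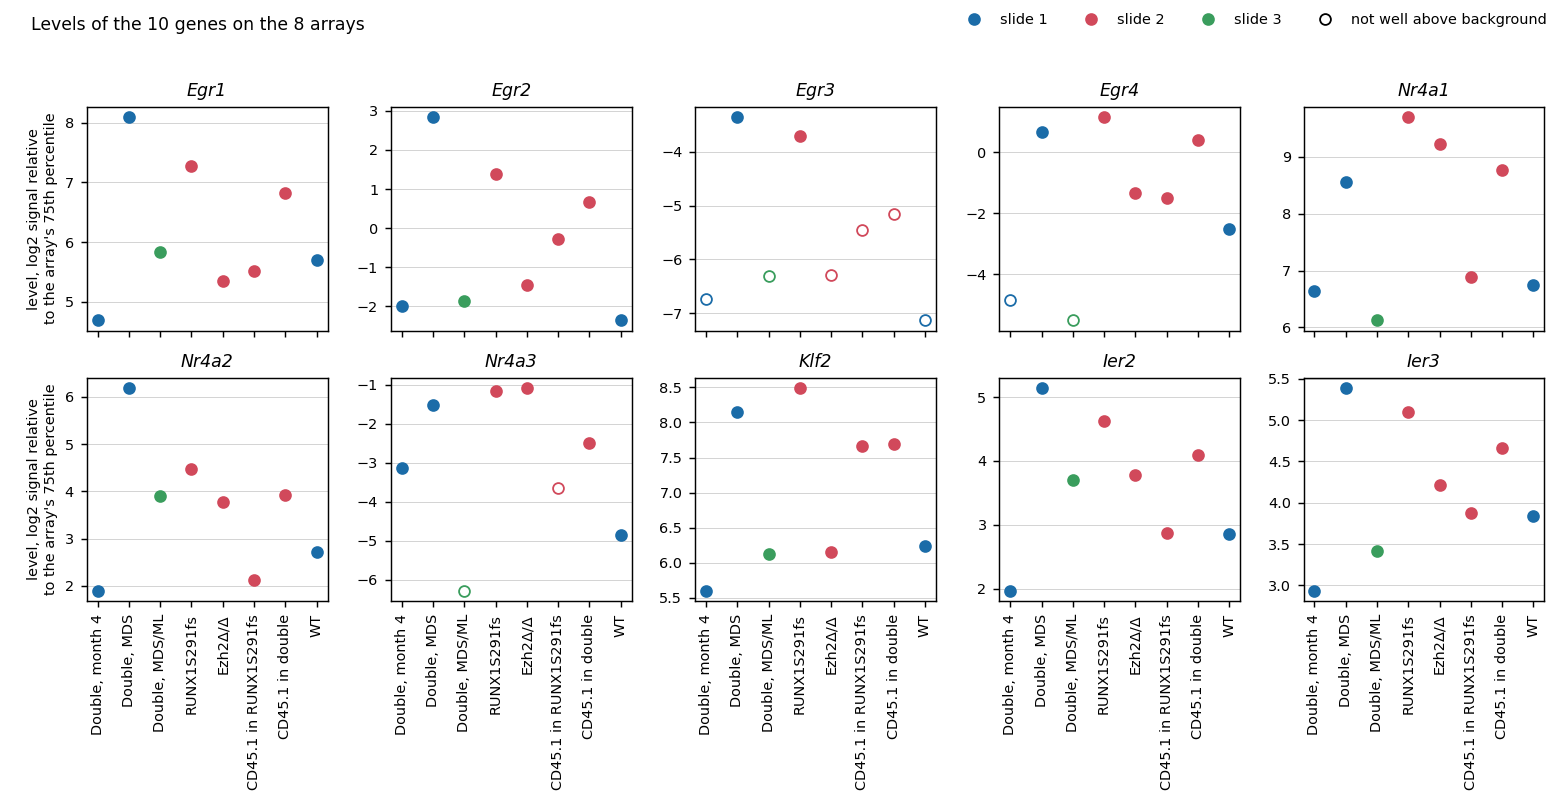
Level (log2 signal relative to the array's 75th percentile) of each of the 10 genes on each of the 8 arrays, 1 point per array, with open points where the probe was not well above background. RUNX1S291fs is among the highest 2 points in all 10 panels, and MDS in 8.

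The arrays fell into a repeated order. Signals under background have no order, so ranks are given for the 7 members well above background on all 8 arrays and the 11298 genes measured that way. RUNX1S291fs was among the 2 highest arrays for 7 of 7 members, against 18.5% of those genes, and MDS for 6, against 24.8%. CD45.1 cells from double-mutant marrow were among the 3 highest for 7, against 41.7%. The month 4 double mutant was lowest for 5 members, against 7.51% of those genes, MDS/ML for Nr4a1, against 14.8%, and WT for Egr2, against 8.97%. The 7 members well above background on all 8 arrays had a median SD of 1.14 over the arrays, where the median of all 11298 such genes was 0.42 and their 90th percentile 0.95. Of those 7, all but Ier3 (0.84) exceeded that percentile.

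The levels moved together from array to array. Among the same 7 genes the 21 pairwise correlations over the 8 arrays ran from r = 0.573 (Nr4a2 and Klf2) to r = 0.957 (Nr4a2 and Ier2), with a median of 0.830. Nr4a1 had the weakest ties to the EGR genes, at 0.589 with Egr1 and 0.648 with Egr2. These are descriptions over 8 arrays that share slides and scaling. The genes outside the group most like the members' mean profile were Maff (r = 0.971), a small MAF factor that is itself an early response gene, Plk3 (0.970), a stress kinase gene, Dnaaf2 (0.968), a dynein assembly factor gene, Dnajb1 (0.962), a heat shock co-chaperone gene, and Srsf5 (0.961), a splicing factor gene. Without the 2 arrays farthest from the median of that profile, r was 0.912 to 0.941 for these 5 genes. Maff had a level of -0.70 on the month 4 double mutant, 3.99 on MDS, -0.24 on MDS/ML, 3.72 on RUNX1S291fs, 2.76 on Ezh2Δ/Δ, 1.08 on CD45.1 cells from RUNX1S291fs marrow, 2.36 on CD45.1 cells from double-mutant marrow and 0.06 on WT. It was highest on MDS and RUNX1S291fs and lowest on the month 4 double mutant, a likeness for which it was chosen. The least like were Ccdc32 (r = -0.949) and Zfp799 (r = -0.939), ranked among 11291 genes well above background on all arrays.

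**Figure D2:**
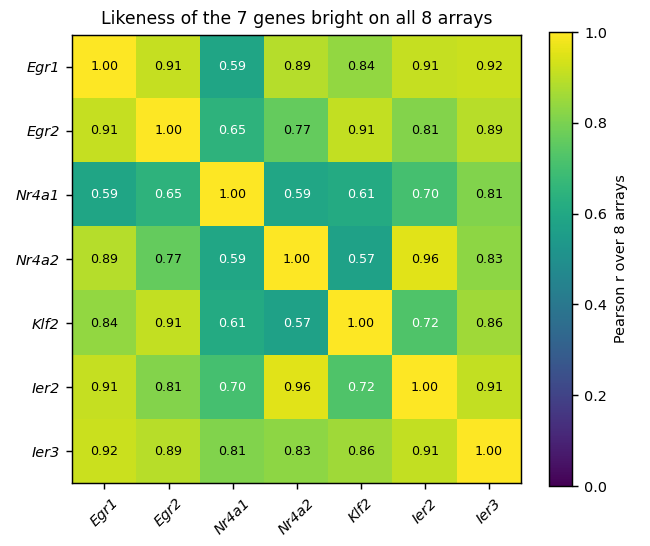
Pearson r over the 8 arrays between the levels of each pair of the 7 members that were well above background on all arrays, from 0 (dark) to 1 (bright). The lowest value is that of Nr4a2 with Klf2 (0.573), followed by Nr4a1 with Egr1 (0.589).

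RUNX1S291fs against WT asks what the RUNX1 lesion does by itself in LSK cells. All 10 members were at least 2-fold higher on RUNX1S291fs, where 8.57% of 13973 genes were and 5.76% were 2-fold lower, and the median difference was 2.01 against 0 for all genes. Egr2 (1.40 against -2.36) was 13.5-fold higher, Nr4a3 (-1.16 against -4.87, near the floor of WT) 13.1-fold, Egr4 12.8-fold and Nr4a1 7.81-fold. Egr3 was at least 2.90-fold higher, a bound set by the lowest signal well above background on WT. The smallest difference was that of Ier3, at 2.39-fold. The pair crosses slides, and the arrays differed in other genes too: 10 of 10 mast cell markers and 10 of 10 neutrophil markers were at least 2-fold higher on RUNX1S291fs, with medians of 3.11 and 1.86. The part of those cells in the difference was not tested. Within slide 2, where RUNX1S291fs lay with its own CD45.1 competitors, 8 of 10 members were at least 2-fold higher on RUNX1S291fs, where 9.13% of genes were, with a median of 1.76 against -0.14 for all genes. Nr4a1 (7.04-fold) and Egr4 (6.31-fold) led, and Klf2 stood at 1.78-fold. In that pair 7 of 10 megakaryocyte markers were at least 2-fold higher (median 2.67) and 6 of 10 neutrophil markers 2-fold lower (median -1.13), and their part was not tested. Against the CD45.1 cells from double-mutant marrow, on the same slide as well, 10 of 10 were higher but 2 reached 2-fold (5.62% of all genes): Nr4a3 at 2.52-fold and Egr3 at no less than 2.62-fold. None was 2-fold lower (5.13%). Against Ezh2Δ/Δ, also on slide 2, 4 of 10 were at least 2-fold higher on RUNX1S291fs (6.04%) and 0 were lower (6.36%): Egr2 at 7.17-fold, Egr4 at 5.63-fold, Klf2 at 5.05-fold and Egr1 at 3.82-fold. The NR4A genes were closer on these arrays, from 1.05-fold lower for Nr4a3 to 1.61-fold higher for Nr4a2.

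Ezh2Δ/Δ against WT asks what loss of Ezh2 alone does, and there the NR4A genes led. Of 9 members compared, Egr3 being dim on both arrays, 4 were at least 2-fold higher on Ezh2Δ/Δ (7.83% of all genes) and 0 were 2-fold lower (3.89%). Nr4a3, near the floor on WT, was 13.8-fold higher, Nr4a1 5.59-fold, Egr4 2.27-fold and Nr4a2 2.10-fold. Egr1 (5.35 against 5.69) and Klf2 (6.16 against 6.24) were close on both arrays. The count was 2 of 9 when arrays were scaled on their median or corrected by normexp. This pair also crosses slides. Within slide 2, Ezh2Δ/Δ exceeded the CD45.1 cells from RUNX1S291fs marrow at least 2-fold for Nr4a1, Nr4a2 and Nr4a3 (9.21% of all genes), while Egr2 and Klf2 were at least 2-fold lower (11.3%). Against the CD45.1 cells from double-mutant marrow, Nr4a3 alone was 2-fold higher (6.47%) and Egr1, Egr2, Egr4 and Klf2 were 2-fold lower (4.07%). The 3 NR4A genes thus stood on Ezh2Δ/Δ at or above both CD45.1 arrays, except Nr4a2, which was 0.14 below the cells from double-mutant marrow, and Klf2, Egr1 and Egr2 stood below both. On Ezh2Δ/Δ, 9 of the 9 B cell markers compared were at least 2-fold higher than on WT, with a median of 5.72. Neutrophil markers were at least 2-fold higher for 8 of 10 (median 3.77) and megakaryocyte markers 2-fold lower for 6 of 10 (median -1.50). The part of such cells was not tested.

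**Figure D3:**
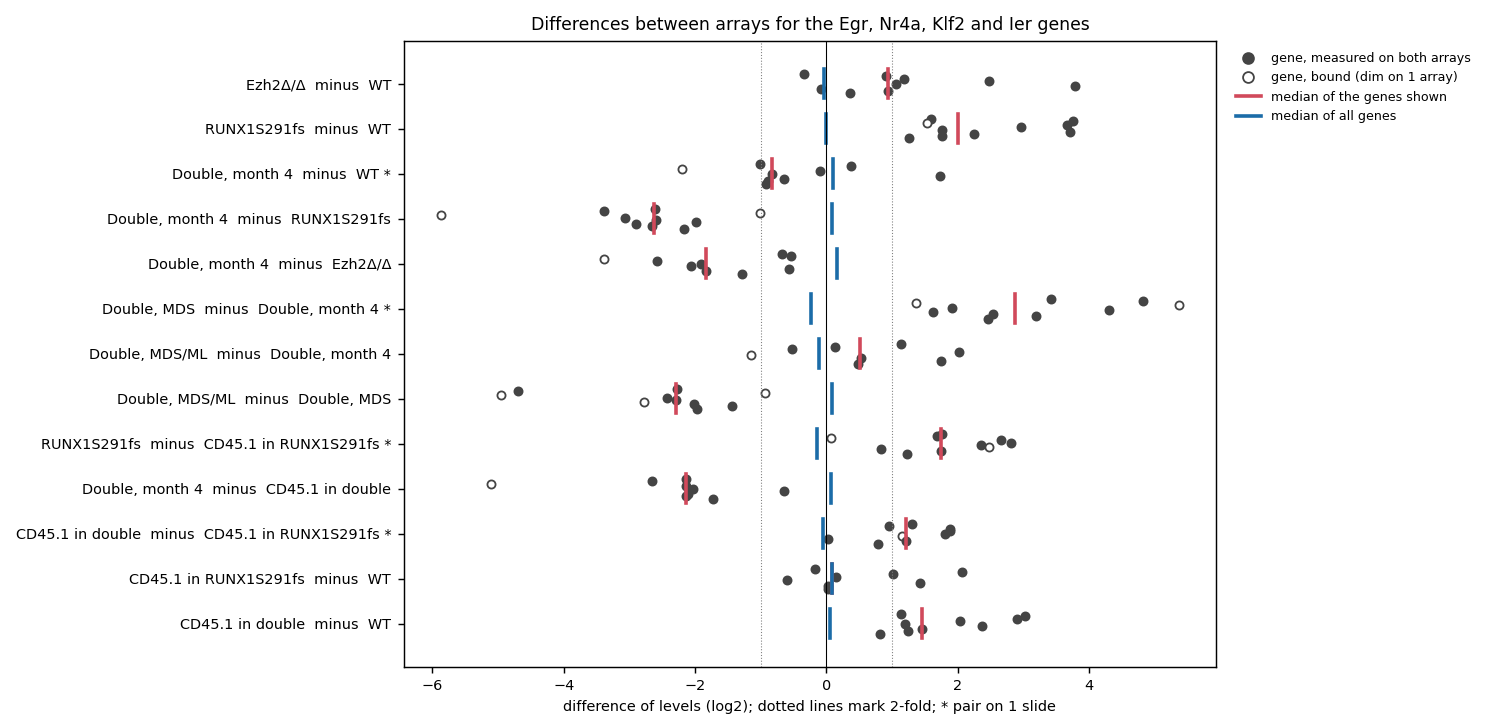
Difference of levels (log2, first array minus second) for each member in each of 13 pairs of arrays, with filled points measured on both arrays, open points for bounds, a red bar for the members' median and a blue bar for the median of all genes. All points lie above 2-fold for RUNX1S291fs minus WT and for MDS minus the month 4 double mutant, and at least 2-fold below 0 for the double mutant minus RUNX1S291fs (9 of 10 with median scaling, quantile normalization or normexp).

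With both lesions at month 4, the genes were lower than on either single lesion. Against RUNX1S291fs, 10 of 10 members were at least 2-fold lower on the double mutant, where 8.55% of genes were and 8.08% were higher, with a median of -2.63 against 0.08 for all genes. Egr4 was at least 58.6-fold lower, Egr2 (-1.98 against 1.40) 10.4-fold, Nr4a1 (6.64 against 9.70) 8.35-fold and Klf2 (5.59 against 8.49) 7.46-fold. Egr3, bound by the floor of the double-mutant array, was at least 2.01-fold lower. The count was 9 of 10 with median scaling, quantile normalization or normexp. Against Ezh2Δ/Δ, 6 of 9 were at least 2-fold lower (11.1% of all genes) and the other 3, Egr1, Egr2 and Klf2, were 1.45-fold to 1.59-fold lower. Both of these pairs cross slides, with the double mutant on slide 1 and the single lesions on slide 2. Slide and the added lesion thus cannot be told apart in them. Against WT, on the same slide, the differences were smaller and mixed: 2 of 9 were at least 2-fold lower on the double mutant (7.96% of genes), Egr4 by no less than 4.59-fold and Egr1 by 2.01-fold, while Nr4a3 was 3.32-fold higher (10.6%). Egr2 was 1.29-fold higher, and the other 5 were 1.07-fold to 1.89-fold lower. Scaling on the array median left 1 member 2-fold lower against WT, and quantile normalization gave 5. With normexp no member was 2-fold higher against WT, so that of Nr4a3 was lost. Neutrophil markers moved the other way, with 10 of 10 at least 2-fold higher on the double mutant against WT (median 5.42) and against RUNX1S291fs (median 3.49). Compared with Ezh2Δ/Δ, 9 of 10 mast cell markers (median 4.65) and 7 of 10 neutrophil markers (median 1.835) were at least 2-fold higher. In that pair 9 of 9 B cell markers (median -6.205) and 8 of 9 T and NK cell markers (median -2.24) were lower. Xist was well above background on the double mutant and not on Ezh2Δ/Δ, so sex differed there too. The part of those cells was not tested.

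The competitor cells give a comparison within a marrow. Donor cells of the double mutant stood below CD45.1 cells from the same marrow: 8 of 9 members were at least 2-fold lower (9.47% of genes, and 10.3% higher), with a median of -2.13 against 0.07 for all genes, and Nr4a3 was 1.57-fold lower. For Egr1 the levels were 4.68 in donor and 6.83 in CD45.1 cells, and for Klf2 5.59 in donor and 7.69 in CD45.1 cells. In RUNX1S291fs marrow the donor cells stood above the competitors, as given above, so the order of donor and competitor differed between the 2 marrows. The RUNX1S291fs pair lay on slide 2, while the double-mutant donor cells lay on slide 1 and their competitors on slide 2, so slide and marrow cannot be told apart in that difference. On the double mutant against its competitors, 10 of 10 neutrophil markers (median 5.21) and 9 of 10 mast cell markers (median 3.98) were at least 2-fold higher and 7 of 8 B cell markers lower (median -4.04). The 2 competitor arrays differed as well, though both are wild type and lay on slide 2. CD45.1 cells from double-mutant marrow were higher than those from RUNX1S291fs marrow for 9 of 9 members, 6 of them at least 2-fold (7.27% of genes, and 9.37% lower), with a median of 1.22 against -0.05 for all genes. Nr4a1 (8.78 against 6.89) and Egr4 (0.38 against -1.50) differed 3.70-fold and 3.69-fold, and Klf2 (7.69 against 7.66) by 1.02-fold. Between these arrays, 10 of 10 neutrophil markers were at least 2-fold lower in cells from double-mutant marrow (median -2.81), while 9 of 10 megakaryocyte markers (median 1.76) and 6 of 8 B cell markers (median 2.85) were higher. The part of those cells in either comparison was not tested. CD45.1 cells from double-mutant marrow were at least 2-fold above WT for 8 of 9 members (4.59% of genes, and 2.64% lower, with a median of 1.45), and those from RUNX1S291fs marrow for 3 of 8 (11.3%, and 7.03% lower, with a median of 0.09): Egr2, Egr4 and Klf2. For those last cells 6 members were higher than WT and 2 lower, but 3 and 5 when arrays were scaled on the median, quantile normalized or corrected by normexp. WT thus did not stand at the level of both other wild-type arrays: the 3 spanned 0.81 for Ier3 to 3.03 for Egr2. Both pairs with WT cross slides, with WT on slide 1 and the CD45.1 arrays on slide 2. WT alone of the 3 had virus and Cre. Slide, virus, Cre and source of the cells thus cannot be told apart in these pairs.

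Set against the range of these 3 wild-type arrays, 7 of the 7 members measured on all arrays lay above it on RUNX1S291fs (22.8% of 11298 genes, with 30.6% below) and 6 on MDS (24.7%, with 46.1% below), with Nr4a1 within it. On the month 4 double mutant 6 of 7 lay below the range (23.7% of genes) and none above (26%), with Egr2 within it. On MDS/ML, Nr4a1, Klf2 and Ier3 lay below (37.4%), 4 lay within and none above (27%). On Ezh2Δ/Δ, Nr4a1 lay above (14.2%), and Egr1 and Klf2 below (36.4%).

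The moribund arrays ask what changes between month 4 and disease in the double mutant, and they differed from each other. On MDS, 10 of 10 members were at least 2-fold higher than on the month 4 double mutant, which shared its slide, where 10.7% of genes were. The median difference was 2.87 against -0.23 for all genes. Egr4 was at least 41.5-fold higher, Egr2 (2.84 against -1.98) 28.4-fold, Nr4a2 (6.19 against 1.88) 19.8-fold, Egr1 (8.10 against 4.68) 10.7-fold and Ier2 9.12-fold. The smallest measured difference was that of Nr4a3, at 3.07-fold, and Egr3 was at least 2.58-fold higher. With normexp, 8 of 10 were at least 2-fold higher. On MDS/ML, 3 of 8 members compared were at least 2-fold higher than on the month 4 double mutant (9.83% of genes): Nr4a2 at 4.04-fold, Ier2 at 3.36-fold and Egr1 at 2.20-fold. Nr4a3 was at least 2.22-fold lower (15.2%), though with normexp no member was 2-fold lower, and Egr2, Nr4a1, Klf2 and Ier3 differed by 1.10-fold to 1.44-fold. MDS/ML against MDS gave 9 of 10 members at least 2-fold lower (9.04% of genes), led by Egr4 (at least 30.9-fold), Egr2 (25.9-fold) and Nr4a3 (at least 6.83-fold), with a median of -2.29. MDS/ML was alone on its slide, so slide and mouse cannot be told apart there. Neutrophil markers separated the moribund arrays: 10 of 10 were at least 2-fold lower on MDS/ML than on MDS (median -7.00) and than on the month 4 double mutant (median -8.07), and 4 of 10 were lower on MDS than on the month 4 double mutant (median -0.50). Both moribund arrays shared other differences from the month 4 double mutant: 8 of 10 megakaryocyte markers were at least 2-fold higher on each (medians 3.29 on MDS and 2.61 on MDS/ML), and 6 of 11 stem and progenitor markers on MDS and 8 of 11 on MDS/ML were at least 2-fold lower. The part of those cells was not tested. Against WT, on the same slide, MDS was at least 2-fold higher for 10 of 10 members (13.6% of genes) and lower for 0 (17.8%), with a median of 2.36 against -0.10 for all genes. Egr2 was 36.8-fold, Nr4a2 11.1-fold and Nr4a3, near the floor on WT, 10.2-fold higher there, and Ier3 2.92-fold. MDS/ML stood near WT: of 8 members compared, Nr4a2 was 2.27-fold higher (9.09%), Egr4 was at least 3.42-fold lower (11.6%), and the median difference was 0.01.

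Tests were possible in a model over all 8 arrays, with terms for Ezh2 deletion, RUNX1S291fs and moribund stage, fitted with limma to 13547 genes. The spread was that among the 3 wild-type arrays, between the 2 moribund ones and off additivity, with 4 residual degrees of freedom, so the tests speak of these arrays. Of the 10 members 9 entered it, and Egr3, well above background on 2 arrays, did not. No member passed a Benjamini-Hochberg adjusted p of 0.05 for any term. For Ezh2 deletion, 0 of 13547 genes (0%) passed and 321 (2.37%) had an unadjusted p under 0.05, as 1 member did. The effect was negative for 8 of 9 members and positive for 44.6% of all genes, with a median of -0.82 against -0.04 for all genes. Klf2 had an effect of -1.79, SE 0.75 (limma, unadjusted p = 0.0484, adjusted p = 1), and Egr1 -1.44, SE 0.77. For RUNX1S291fs, 2 genes (0.0148%) passed and no member did, with 0 of 9 members and 5.95% of genes under 0.05 unadjusted. All 9 effects were positive, as were those of 54% of all genes, but small beside their errors. They ran from 0.01, SE 1.96, for Egr4 to 1.02, SE 1.44, for Egr2, with a median of 0.31 against 0.03. For moribund stage, 250 genes (1.85%) passed and 0 of 9 members, with 0 members and 13.7% of genes under 0.05 unadjusted. Nr4a2 had an effect of 2.12, SE 1.20 (limma, adjusted p = 0.517), and Egr1 1.70, SE 0.94 (limma, adjusted p = 0.510), while Nr4a1 and Nr4a3 were at -0.75 and -2.14. Single arrays decide these values. The median Ezh2 deletion effect was -2.66 without Ezh2Δ/Δ and 0.09 without RUNX1S291fs or without the month 4 double mutant, and the median RUNX1S291fs effect was -1.83 without RUNX1S291fs and 1.56 without Ezh2Δ/Δ or without the double mutant. The median stage effect was -0.71 without the month 4 double mutant, -0.19 without MDS, 2.24 without MDS/ML and 2.28 without Ezh2Δ/Δ or RUNX1S291fs. The 2 genes passing for RUNX1S291fs became 10 without CD45.1 cells from RUNX1S291fs marrow, 4 without MDS or MDS/ML and 0 without any of the other 5 arrays. The count of genes passing for stage was 0 without the month 4 double mutant, 391 without MDS/ML, 154 without MDS, 95 without WT and 91 without CD45.1 cells from double-mutant marrow.

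A second fit with the product of both lesions asks whether the effect of Ezh2 deletion differs between RUNX1S291fs carriers and other cells. It was negative for 9 of 9 members and positive for 59.7% of all genes. The median was -3.18 against 0.22 for all genes, and 0 of 13547 genes (0%) passed. Nr4a1 had -4.82, SE 1.81 (limma, unadjusted p = 0.0358, adjusted p = 0.748), and Ier2 -3.18, SE 1.18 (limma, unadjusted p = 0.0348, adjusted p = 0.748). An unadjusted p under 0.05 was reached by those 2 of 9 members and by 6.55% of all genes. At month 4, WT and the double mutant lay on slide 1, and Ezh2Δ/Δ and RUNX1S291fs on slide 2. Among those CD45.2 arrays, slide and the product cannot be told apart. The widest intervals were those of Egr4, from -14.6 to 2.79, and Nr4a3, from -11.4 to 2.25. No member had levels on the 4 deleted arrays that were clear of the other 4 (2.81% of genes did), nor on the 4 RUNX1S291fs carrier arrays (8.59%).

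**Figure D4:**
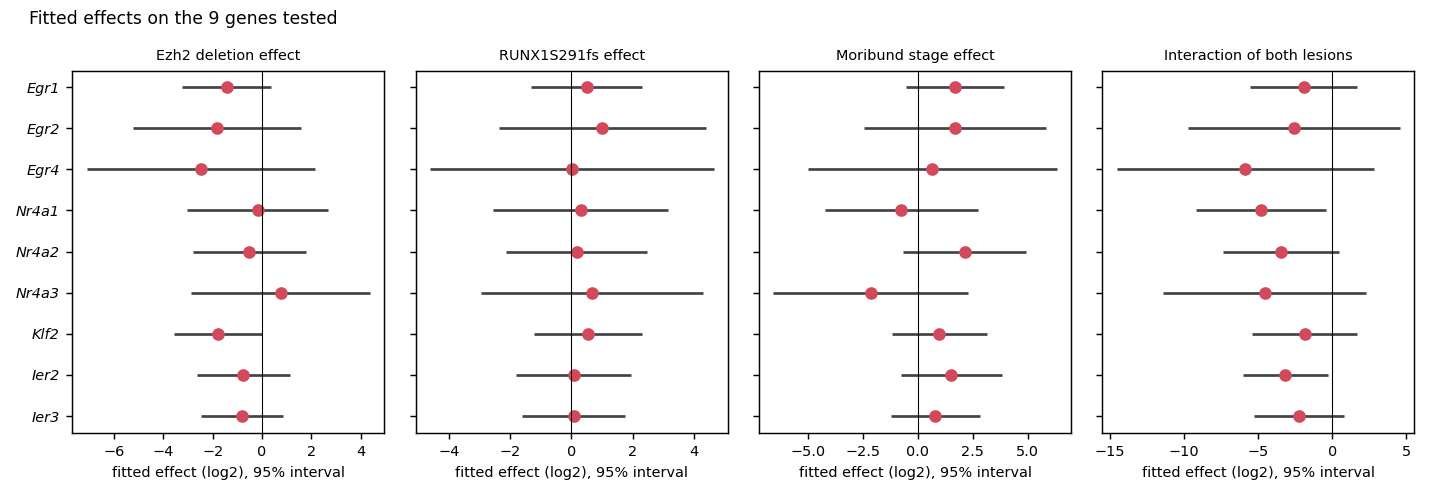
Fitted log2 effect of Ezh2 deletion, RUNX1S291fs, moribund stage and the product of both lesions on each of the 9 members tested, with 95% intervals. All intervals cross 0 except those of Klf2 for Ezh2 deletion and of Nr4a1 and Ier2 for the product, none of which passed after adjustment.

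Other early response genes went with the members. Among 20 further immediate early genes, 17 were at least 2-fold higher and 1 lower on RUNX1S291fs than on WT (median 2.38), 17 were lower on the month 4 double mutant than on RUNX1S291fs (median -2.69), and 16 were higher on MDS than on the month 4 double mutant (median 2.57). MDS/ML was at least 2-fold below MDS for 13 of 20. Fosb, a subunit of AP-1, had a level of 3.83 on the month 4 double mutant, 8.48 on MDS, 6.32 on MDS/ML, 8.29 on RUNX1S291fs, 5.81 on Ezh2Δ/Δ, 6.23 on CD45.1 cells from RUNX1S291fs marrow, 7.01 on CD45.1 cells from double-mutant marrow and 4.91 on WT. It too was highest on MDS and RUNX1S291fs. In the fits 0 of 20 passed for any term. The product of both lesions was negative for 17 of 20, with a median of -3.90, and 10 had an unadjusted p under 0.05. Fosl1 was at -6.64, SE 2.16, and Maff at -6.00, SE 2.55 (limma, adjusted p = 0.697 and 0.770).

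Feedback inhibitors, the phosphatases, RNA-binding proteins and others that end such a response, ran the same way at smaller size. Of 15 compared, 10 were at least 2-fold higher on RUNX1S291fs than on WT (median 1.09), 12 lower on the month 4 double mutant than on RUNX1S291fs (median -1.70) and 10 higher on MDS than on the month 4 double mutant (median 1.82). Dusp5, a phosphatase that acts on ERK, had a product effect of -5.27, SE 1.83 (limma, adjusted p = 0.722). The genes upstream of the response did not share the pattern. Of 17 genes for ERK pathway kinases, serum response factor and its partners, CREB, MEF2 factors and the forkhead factor Foxo1, 3 were at least 2-fold higher on RUNX1S291fs than on WT (median 0.26), Foxo1 most (2.61 against 0.92), 1 was lower on the double mutant than on RUNX1S291fs (median -0.04), and 0 were higher and 3 lower on MDS than on the month 4 double mutant (median -0.37). Mef2c, a MEF2 factor of blood and muscle, had a product effect of -2.24, SE 0.92 (limma, adjusted p = 0.762). Among the partners, Nab2, a corepressor that EGR proteins themselves induce, had a level of 2.08 on the month 4 double mutant, 2.33 on MDS, 2.48 on MDS/ML, 4.31 on RUNX1S291fs, 3.92 on Ezh2Δ/Δ, 2.73 on CD45.1 cells from RUNX1S291fs marrow, 3.92 on CD45.1 cells from double-mutant marrow and 3.15 on WT. Nab2 did not share the members' peak on MDS. Its product effect was -2.90, SE 0.84 (limma, adjusted p = 0.687), and Rxra, a receptor partner, had a RUNX1S291fs effect of 0.77, SE 0.32 (limma, adjusted p = 0.828). Of the 8 genes known as targets in other cells, S1pr1, the Klf2 target, was 3.07 on RUNX1S291fs and 0.04 on MDS, although Klf2 was high on both.

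**Figure D5:**
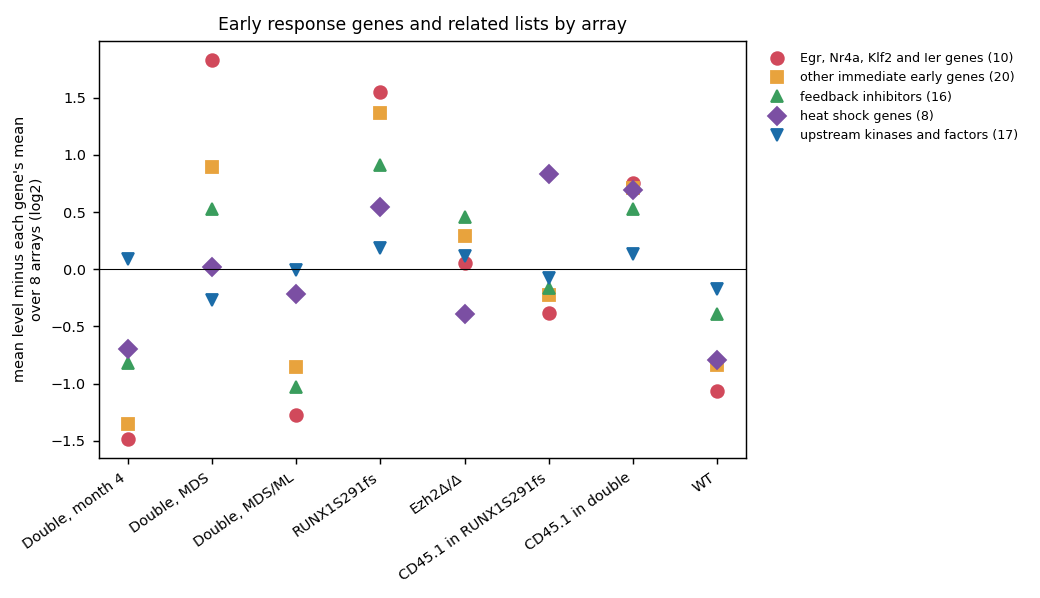
Mean over the genes of each list of the level minus the gene's own mean over the 8 arrays (log2), by array, for the members, the other immediate early genes, the feedback inhibitors, the upstream kinases and factors, and the heat shock genes. The first 3 lists lie above 0 on MDS, RUNX1S291fs, Ezh2Δ/Δ and CD45.1 cells from double-mutant marrow and below 0 on the other 4 arrays, though on Ezh2Δ/Δ the members' mean is 0.05 over all 10 and -0.14 over the 7 measured on all arrays, while the heat shock list is highest on CD45.1 cells from RUNX1S291fs marrow (0.84).

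Early response and heat shock genes can be switched on while cells are taken from tissue and sorted, and no measurement of handling came with the arrays. Heat shock genes, a list of 9 of which 8 had a probe, had their highest mean on CD45.1 cells from RUNX1S291fs marrow, 0.84 above their own means, where the members were 0.38 below theirs. They were 0.69 above on CD45.1 cells from double-mutant marrow, 0.54 on RUNX1S291fs and 0.02 on MDS, and lowest on WT, at -0.80. Hspa1a, the inducible HSP70 gene, had a level of -3.07 on the month 4 double mutant, 0.19 on MDS, 0.55 on MDS/ML, 3.13 on RUNX1S291fs, -0.45 on Ezh2Δ/Δ, 1.91 on CD45.1 cells from RUNX1S291fs marrow, 4.04 on CD45.1 cells from double-mutant marrow and -2.91 on WT. It shared the members' low levels on the month 4 double mutant and WT, but not their peak on MDS. Dnajb1, of the same list and among the genes most like the members, did share it, at 7.79 on MDS and 5.49 on the month 4 double mutant, its highest and lowest levels. The part of cell handling in the members' levels was not tested.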

How the data were processed

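RNA of LSK cells was read on 8 one-colour arrays, 1 per group. Pairs of arrays were described without a test, and tests came from a model over all 8. Per the labels' protocols, sorted cells gave total RNA that was amplified and labelled with Cy3. Per the file headers, Agilent Feature Extraction 10.7.1.1 gave each spot a processed signal, an intensity from which the software took background and spatial trend, with arrays left unscaled against each other. The authors' deposited series table is a linear signal. Its 8 columns equalled the processed signal over an array-wide factor (within 0.01 log2 for 99.95% to 100% of probes), with column medians of 0.0526 to 0.0671 and no centring on genes. The sources used here name no method for it.

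Of 62976 spots per array, 59305 were no controls. Averaging repeat spots left 55681 probes. Log2 intensity minus the 75th percentile of the array was used. Probes were named by matching transcript accessions to the RefSeq table of GRCm38.p6, used for names only: 27235 matched, for 20660 genes. The probe with the highest mean stood for a gene. Genes that 3 or more arrays measured well above background were fitted with limma 3.58.1 (R 4.3.3), threshold 0.05 after Benjamini-Hochberg adjustment. The fit was also run on simulated levels with independent noise and no differences of slide, sex or cell type. That run cannot show how such differences bear on the fit. In pairs, a dim value was replaced by the lowest bright level of the same array, which makes the difference a bound, and genes dim on both arrays were left out. No fold was given for a bright value under the other array's floor. The named genes are all 10 members, up to 3 genes of each other list with the largest fitted effects and, among other genes bright on all 8 arrays, the 5 most and the 2 least like the mean profile of the members by Pearson r. Members, lists (17 lists, 184 genes, 182 with a probe) and rules were chosen with earlier results of these data known. As an array gives no count depth, the number of arrays limits the precision. Alternatives changed background correction, scaling, filter, probe rule, blocks and arrays used. Promoter windows are those of RefSeq.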

Additional observations from a re-analysis of the deposited data

Results flagged for a closer look

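These values are differences between 2 differences, each at least 2-fold and of opposite sign, in log2. In the first set, Ezh2Δ/Δ minus WT and the month 4 double mutant minus RUNX1S291fs differed by 7.05 for Egr4 (1.18 against -5.87, a bound), 5.55 for Nr4a1 (2.48 against -3.06), 3.66 for Nr4a2 (1.07 against -2.59) and 5.77 for Nr4a3 (3.79 against -1.98). All 3 NR4A genes were thus higher on Ezh2Δ/Δ than on WT and lower on the double mutant than on RUNX1S291fs. WT and the double mutant lay on slide 1, and Ezh2Δ/Δ and RUNX1S291fs on slide 2. Slide and the lesions thus cannot be told apart in these differences. The same 4 arrays, taken the other way round as RUNX1S291fs minus WT and the double mutant minus Ezh2Δ/Δ, gave the same 7.05 for Egr4, 5.55 for Nr4a1, 3.66 for Nr4a2 and 5.77 for Nr4a3, and added 3.60 for Ier2 (1.77 against -1.83) and 2.54 for Ier3 (1.26 against -1.28). The limma test of this difference over all 8 arrays passed for none of them after adjustment (adjusted p = 0.748 to 0.838), with 2 of 9 members under 0.05 unadjusted.

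Donor minus competitor cells ran in opposite directions in the RUNX1S291fs and the double-mutant marrow, where the RUNX1S291fs pair shared a slide and the double-mutant pair did not, so slide and marrow cannot be told apart. The difference was 3.91 for Egr1 (1.77 against -2.14), 4.34 for Egr2 (1.68 against -2.66), 7.76 for Egr4 (2.66 against -5.10, a bound), 4.95 for Nr4a1 (2.82 against -2.13), 4.40 for Nr4a2 (2.36 against -2.04), 3.88 for Ier2 (1.74 against -2.13) and 2.96 for Ier3 (1.23 against -1.73). Klf2, at 0.83 against -2.10, shared the signs but not the size. Against the month 4 double mutant, Nr4a3 was 1.62 higher on MDS and at least 1.15 lower on MDS/ML, a difference of 2.77, and the lower value did not reach 2-fold with normexp. These differences were not tested, since each rests on single arrays.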

How the results depend on the processing

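No paired analysis was possible because every array carries replicate number 1, so that the numbers form no pairs, and slide and recipient served as blocks instead. No member effect passed in any alternative that was read (limma, lowest adjusted p 0.499 for Ezh2 deletion, 0.565 for RUNX1S291fs, 0.0559 for stage and 0.525 for the product). Directions held in 371 of 379 member effects outside leave-outs. With slide as a fixed block, Ezh2 deletion on Nr4a1 was 0.27, stage on Nr4a1 1.35 and on Nr4a3 1.26, the members' median stage effect 2.80, and 74 genes passed for stage. With no stage term, Ezh2 deletion on Nr4a2 was 0.19 and RUNX1S291fs on Nr4a3 -0.031. With slide as a random block, RUNX1S291fs on Egr4 was -0.14 and on Ier2 -0.028, and with recipient as a random block on Nr4a2 -0.021. For stage 150 genes passed with no filter on dim probes and 152 with genes bright on all 8 arrays (250 otherwise). For RUNX1S291fs, against 2, the count was 0 with no filter, with genes bright on all arrays and with each block, 1 with probe means and with normexp, 4 in month 4 arrays, 5 with quantile normalization and 9 with no stage term. Leaving out 1 array gave 0 to 10 genes for RUNX1S291fs and 0 to 391 for stage, and member medians of -2.66 to 0.089 (Ezh2 deletion), -1.83 to 1.56 (RUNX1S291fs), -0.71 to 2.28 (stage) and -3.59 to -2.96 (product). Leave-outs turned single effects for Ezh2 deletion on Nr4a1 (-3.06 to 1.75), Nr4a2 (-2.59 to 0.87), Nr4a3 (-1.98 to 2.59), Ier2 (-2.66 to 0.52) and Ier3 (-2.17 to 0.089), for RUNX1S291fs on Egr1 (-0.67 to 1.27), Egr2 (-0.54 to 2.06), Egr4 (-3.52 to 2.37), Nr4a1 (-2.58 to 2.24), Nr4a2 (-1.90 to 1.56), Nr4a3 (-2.06 to 2.51), Klf2 (-0.56 to 1.29), Ier2 (-1.83 to 1.35) and Ier3 (-1.28 to 0.98), and for stage on Egr2 (-0.65 to 4.05), Egr4 (-3.46 to 3.75), Nr4a1 (-4.12 to 0.70), Nr4a2 (-0.30 to 3.27), Nr4a3 (-5.34 to 0.25), Klf2 (-0.32 to 1.99), Ier2 (-0.71 to 2.47) and Ier3 (-0.79 to 1.78). The cause was not tested, beyond the array left out. In pairs, Ezh2Δ/Δ against WT had 2 members 2-fold higher with median scaling or normexp, the double mutant against WT 1 lower with median scaling and 5 with quantile normalization, and CD45.1 cells from RUNX1S291fs marrow against WT 1 higher with quantile normalization or normexp. Median scaling moved the median of all genes to 0.43 (0.16 otherwise) for the double mutant against Ezh2Δ/Δ and to -0.52 (-0.23 otherwise) for MDS against the double mutant. Egr3 was fitted only with no filter: -1.43, SE 1.01, for Ezh2 deletion, 1.14 for RUNX1S291fs, 1.10 for stage and -2.65 for the product. Normexp was run on median spot signals, chosen after seeing the data, in place of mean signals, which were not used here. The product could not be fitted without Ezh2Δ/Δ, RUNX1S291fs or the month 4 double mutant, nor with recipient as a block. It was also fitted with slide as a fixed block, which left 1 residual degree of freedom, and with no stage term. The product effects of those fits were not read and are not given here. Signal over background limits Egr3, Egr4 and Nr4a3.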
